A study of Mus musculus with 9 samples.

Results

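Cyclins and cyclin-dependent kinases of the meiotic and mitotic cell cycle were examined in testis RNA. The males had or lacked protamine 2, the product of Prm2. The set comprised 9 genes of the 38685 in the deposited table, chosen by name: the A-type cyclins Ccna1 and Ccna2, the B-type cyclins Ccnb1 and Ccnb2, the G1 cyclins Ccnd3 and Ccne1, the kinases Cdk1 and Cdk2, and the phosphatase Cdc25c. All 9 were found in the table and all 9 passed the filter on low counts, as did 14893 genes in all. The libraries came from testes, freed of the tunica albuginea, of 3 Prm2+/+, 3 Prm2+/- and 3 Prm2-/- males on a C57BL/6 background. Prm2+/+ males carried intact alleles, Prm2+/- males carried 1 edited allele and Prm2-/- males were deficient for Prm2. The edit was made in oocytes with CRISPR/Cas9, so that it is not limited to a cell type, and the labels name no treatment for any genotype. Ages of the males used for RNA were not given in the sources used here.

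A cyclin-dependent kinase is inactive until a cyclin binds it. Cyclin B with Cdk1 forms the maturation-promoting factor that takes spermatocytes from prophase into the meiotic divisions, and Cdc25c removes the inhibitory phosphates from Cdk1. Cyclin A1 is largely restricted to the germ line and is needed by spermatocytes to enter the first meiotic division. Cyclin A2 and the G1 cyclins serve the mitotic cycle of spermatogonia and other dividing cells, but need not be limited to it. Cdk2 is required in meiotic prophase, where it sits at telomeres and at sites of recombination. Protamine 2 packs the DNA of elongating spermatids, which have left meiosis behind.

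QuantSeq, which reads polyadenylated transcripts near their 3' end, gave the values. Levels are normalized counts, that is, gene counts divided by 1 size factor per library, and each is compared between libraries for the same gene only. The counts recovered from them summed to between 3629929 and 4490411 per library. Differences are log2 fold changes (LFC) from limma, fitted to log2 values after adding 1, a scale that understates changes of low genes, and a gene was called at a Benjamini-Hochberg adjusted p under 0.05 with an LFC beyond 0.5 in either direction. In bulk tissue, fewer cells of a type and less RNA per cell cannot be told apart.

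Prm2 (ENSMUSG00000038015, GRCm38 chr16:10791380-10796134, minus strand) was read at 29757, 29716 and 39665 normalized counts in Prm2+/+, at 30174, 31011 and 34487 in Prm2+/- and at 34660, 36004 and 42766 in Prm2-/-. The Prm2-/- libraries thus held no less of this transcript, which leaves their labels unchecked. Replicate 3 of Prm2+/+ stood apart from the rest. It was the lowest of the 9 libraries in 24.8% of the tested genes and the highest in 23.9%, against 7.46% to 12.8% for the other 8 libraries. Germ cell markers were abundant, as the tissue label calls for. The elongating spermatid markers summed to between 219000 and 239100 normalized counts in each library. Of the 7 epididymis markers, Lcn5, Lcn8 and Lcn9 were at 0 throughout, Rnase10 had 17.2 to 36.4 normalized counts in all 9 libraries, and Adam7, Cst11 and Crisp1 were above 0 in 1 library each, at no more than 9.50. The 9 spermatocyte markers summed to between 34790 and 43510 in 8 libraries and to 9169 in replicate 3 of Prm2+/+, where Ldhc, a lactate dehydrogenase of the germ line, had 2505 normalized counts against 27414 to 36393 elsewhere. Without Ldhc the sums were 6664 in this library and 7119 to 8207 in the others.

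None (0) of the 9 genes was called in any of the 3 comparisons. Over all tested genes, 0.181% were called between Prm2-/- and Prm2+/+, 0.175% between Prm2-/- and Prm2+/-, and 0.0806% between Prm2+/- and Prm2+/+, so that a count of 0 among 9 lies near the background. At an unadjusted p under 0.05, 1 gene of the set passed in each comparison: Ccnb1 between Prm2-/- and Prm2+/+, where 7.33% of all genes passed, Ccnd3 between Prm2-/- and Prm2+/-, where 5.44% passed, and Ccnd3 between Prm2+/- and Prm2+/+, where 4.24% passed. The median LFC of the 9 genes was 0.28 for Prm2-/- against Prm2+/+, 0.05 for Prm2-/- against Prm2+/- and 0.09 for Prm2+/- against Prm2+/+. Over all tested genes these medians were 0.02, -0.006 and 0.014. Replicate 3 of Prm2+/+, the lowest library for 4 of the 9 genes, enters both comparisons with Prm2+/+. DESeq2 called 1 gene of the set, Ccnd3, in each comparison that involved Prm2+/-, and edgeR called 0 in all 3.

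**Figure D1:**
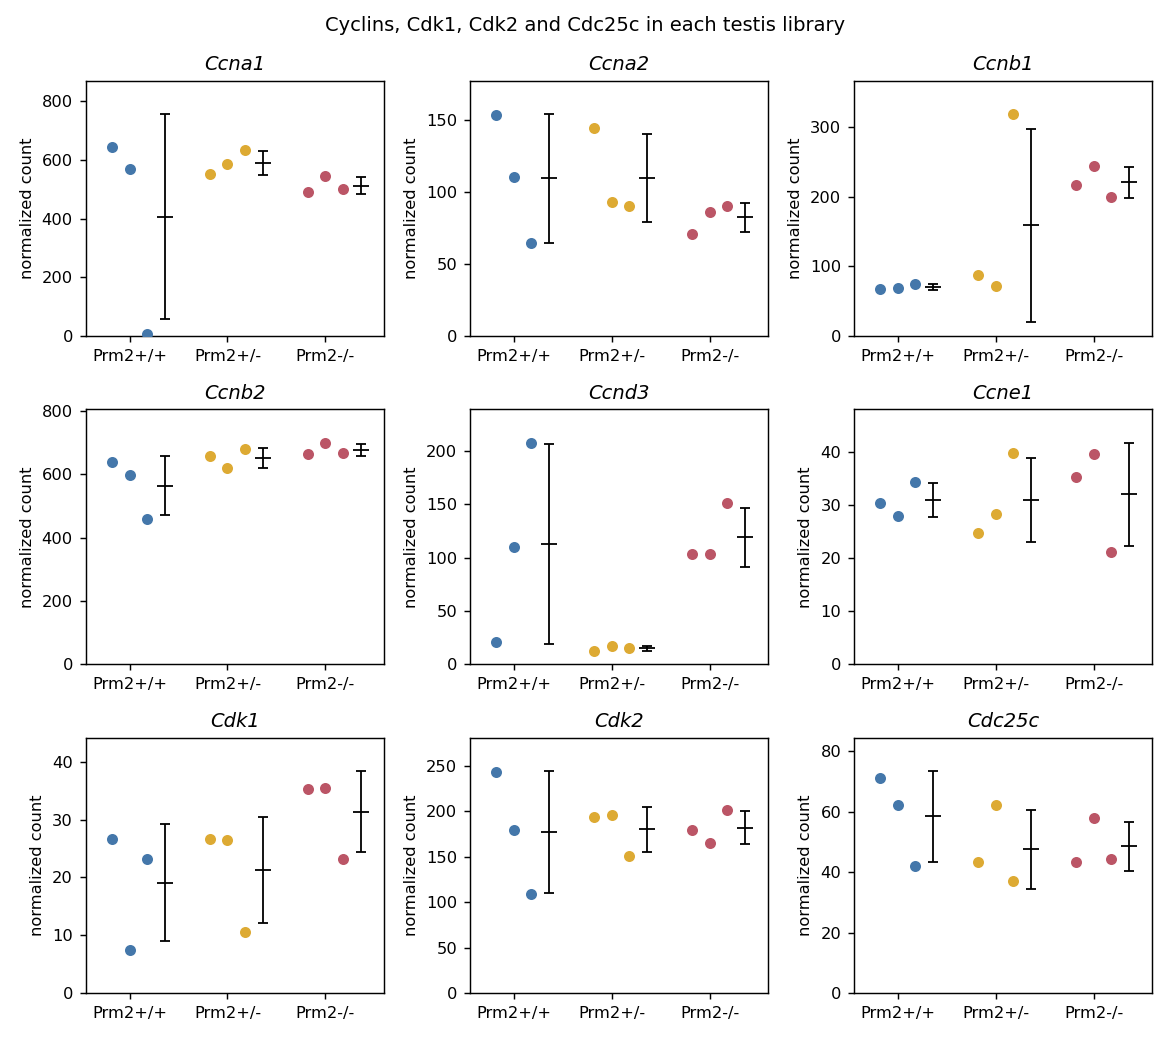
Normalized counts (vertical axis, from 0) of the 9 genes in each library. Points are replicates 1 to 3 from left to right, and the bars beside them give the mean and SD of the 3 males of a genotype. Ccna1 has 1 low Prm2+/+ library at 6.63, Ccnd3 is at or below 17.4 in all 3 Prm2+/- libraries, and Ccnb1 is at or above 199.6 in all 3 Prm2-/- libraries and in 1 Prm2+/- library.

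Neither B-type cyclin was called. Prm2-/- and Prm2+/+ libraries did not overlap for 2 of the 9 genes, Ccnb1 and Ccnb2, while 14.0% of all tested genes were separated in this way, so that the count lies near the background. Ccnb1 (ENSMUSG00000041431, chr13:100778650-100786570, minus strand) encodes cyclin B1, a partner of Cdk1 at division. It was measured at 67.5, 68.6 and 75.1 normalized counts in Prm2+/+, at 87.0, 71.2 and 318 in Prm2+/-, and at 217, 245 and 199.6 in Prm2-/-. The libraries thus fell into a low set, made up of the 3 Prm2+/+ libraries with replicates 1 and 2 of Prm2+/-, and a high set, made up of the 3 Prm2-/- libraries with replicate 3 of Prm2+/-, and no library lay between 87.0 and 199.6. Means were 70.4 ± 4.14 in Prm2+/+, 159 ± 138 in Prm2+/- and 221 ± 22.6 in Prm2-/- (SD, n = 3 each).

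For Ccnb1 the LFC of Prm2-/- against Prm2+/+ was 1.63 (95% interval 0.50 to 2.76, standard error 0.49), a 3.09-fold higher level, with an unadjusted p of 0.0105 and an adjusted p of 0.533 in limma. The call depended on the Prm2+/- libraries. With only the 6 libraries of these genotypes in the fit, the adjusted p was 0.00811, and it was 0.00656 once replicate 3 of Prm2+/- was left out. Against Prm2+/-, the LFC of Prm2-/- was 0.80 (-0.33 to 1.93, adjusted p = 0.976), which became 1.47 with an adjusted p of 0.0155 once that replicate was left out. Prm2+/- differed from Prm2+/+ by an LFC of 0.83 (-0.30 to 1.96), which was 0.16 without that replicate. GENCODE M21 lists 5 pseudogenes that match a stretch of at least 100 bases of Ccnb1 transcripts at 95% identity or more (Ccnb1-ps, Gm12856, Gm4870, Gm7483 and Gm8416). They match over 336 to 1294 bases. Of the 5, 4 reach to within 6 bases of the end of a Ccnb1 transcript, from which the 3' reads come. The longest match of each, however, ended 1028 to 1938 bases before the end of the transcript it lay in. Which Ccnb1 transcripts gave the reads was not tested. None of them is in the table used here, and the study's methods state that pseudogenes were taken out of the counts by their annotation. The assignment of Ccnb1 reads is uncertain to this extent.

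Ccnb2 (ENSMUSG00000032218, chr9:70407692-70421547, minus strand), the partner cyclin that mice can do without, varied far less. Normalized counts were 639, 597 and 460 in Prm2+/+, 658, 619 and 679 in Prm2+/- and 666, 700.2 and 667 in Prm2-/-. The Prm2-/- libraries were above every Prm2+/+ library and overlapped those of Prm2+/-. The LFC against Prm2+/+ was 0.28 (-0.01 to 0.56, adjusted p = 0.700), 1.21-fold, and it was 0.13 without replicate 3 of Prm2+/+, the lowest library. Prm2-/- and Prm2+/- differed by 0.06 (-0.23 to 0.34), so that a change of the 0.5 threshold lies outside the interval.

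The promoters of both B-type cyclins, of Cdk1, their kinase, and of Ccna1 are shown because these genes act at the meiotic divisions, not because of how they varied here. Promoters of cell cycle genes that peak at division often carry several CCAAT boxes, which are bound by NF-Y, and a cell cycle genes homology region (CHR), the letters TTTGAA, bound by the MuvB complex. The sequences below are from RefSeq (GRCm38.p6), run 5' to 3' on the minus strand, on which all 4 genes lie, from 150 bases before the start site to 30 bases from it on, and show CCAAT (or its reverse complement ATTGG) and TTTGAA in capitals.
Ccnb1, chr13:100786457-100786636: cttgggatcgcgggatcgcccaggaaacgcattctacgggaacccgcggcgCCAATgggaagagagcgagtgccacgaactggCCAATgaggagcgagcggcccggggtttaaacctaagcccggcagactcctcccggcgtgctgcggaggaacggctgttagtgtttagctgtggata
Ccnb2, chr9:70421525-70421704: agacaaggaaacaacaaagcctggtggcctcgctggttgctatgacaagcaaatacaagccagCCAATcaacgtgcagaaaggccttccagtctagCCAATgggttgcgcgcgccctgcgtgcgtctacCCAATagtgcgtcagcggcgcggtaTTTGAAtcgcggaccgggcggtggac
Cdk1, chr10:69352883-69353062: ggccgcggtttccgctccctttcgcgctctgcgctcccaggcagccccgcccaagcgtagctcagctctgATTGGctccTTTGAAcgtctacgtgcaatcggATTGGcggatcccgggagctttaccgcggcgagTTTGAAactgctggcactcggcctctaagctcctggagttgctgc
Ccna1, chr3:55055026-55055205: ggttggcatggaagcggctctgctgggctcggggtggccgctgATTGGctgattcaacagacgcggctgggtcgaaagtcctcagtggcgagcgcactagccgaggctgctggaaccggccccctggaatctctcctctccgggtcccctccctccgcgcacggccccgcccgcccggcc

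Motifs were sought on both strands from 250 bases before to 50 bases from the start, and no 2 motifs overlapped. Ccnb1 held 2 CCAAT motifs, at -99 and -67, that is 32 bases apart, and no CHR. Ccnb2 held 3, at -87, -54 and -21, each 33 bases from the next, with a CHR at -167 and another at 5. Cdk1 held 3, at -208, -80 and -48, of which the last 2 were 32 bases apart, with a CHR at -71 and another at -15. Ccna1 and Cdk2 held 1 CCAAT each, at -107 and -45, and Ccne1 held 0. Ccna2 and Cdc25c were not searched. Ccnd3 has 2 start sites in RefSeq, with 0 motifs at the upstream site and 1 CCAAT at the downstream site. Of 32851 mouse promoters of the same length, 37.4% held at least 1 CCAAT and 11.7% at least 2, a pair 30 to 34 bases apart was present in 1.49%, and a CHR (TTTGAA or TTCAAA) was present in 17.9%, with 2 or more in 2.31%. RefSeq starts can differ from the gene ends of GENCODE given here. For Ccna1 the start used was chr3:55055055, while the gene begins at 55055501 on this strand, so the whole stretch searched lies inside the gene. For Ccnb1 the start was chr13:100786486, while the gene begins at 100786570. These matches describe letters in a window and not binding.

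**Figure D2:**
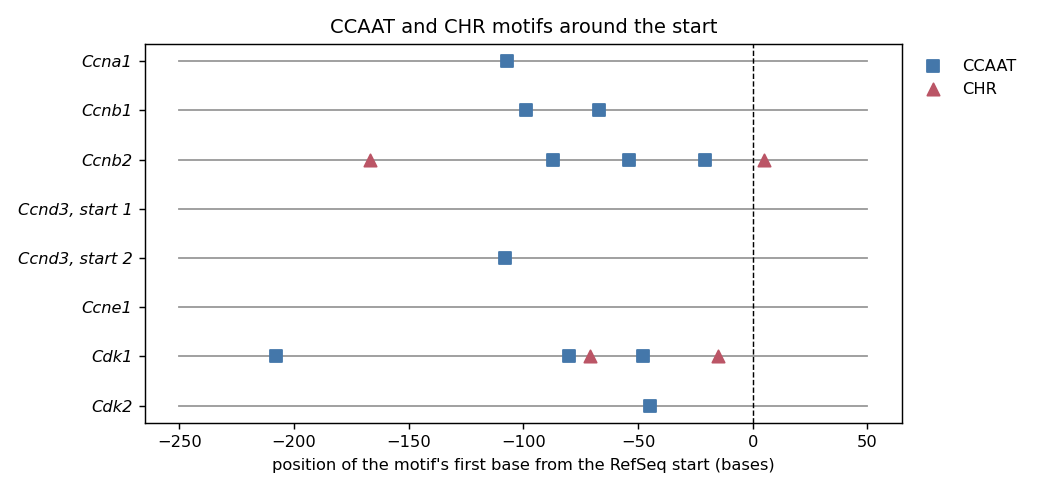
Positions of CCAAT (squares) and CHR (triangles) motifs from 250 bases before to 50 bases from the RefSeq start, marked by the dashed line. Horizontal position is the motif's first base in bases, and each row is 1 start site, for 7 of the 9 genes. Ccnb1, Ccnb2 and Cdk1 each carry CCAAT motifs 32 or 33 bases apart.

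The A-type cyclins did not separate Prm2-/- from Prm2+/+. Ccna1 (ENSMUSG00000027793, chr3:55045469-55055501, minus strand) was measured at 644, 570.1 and 6.63 normalized counts in Prm2+/+, at 551, 585 and 634 in Prm2+/-, and at 491, 546 and 501 in Prm2-/-. Replicate 3 of Prm2+/+ was thus the sole low library, separated from the next by a gap of 64.5-fold. Gaps, here and below, are ratios of neighbouring values after adding 1 to each. Only 0.329% of the tested genes had a larger gap between neighbouring libraries. The low value of that library gave Prm2+/+ a mean of 407 ± 349, against 590 ± 42.1 in Prm2+/- and 512 ± 29.4 in Prm2-/- (SD, n = 3 each). With it, the LFC was 1.86 for Prm2-/- against Prm2+/+ (-1.59 to 5.31, adjusted p = 0.760), while edgeR gave 0.34 and DESeq2 0.33 with the same libraries. Without it, in limma, the LFC was -0.24 (adjusted p = 0.580), so that the direction rested on this library, as it did for Prm2+/- against Prm2+/+, at 2.06 with (0.53 by edgeR and by DESeq2) and -0.04 without it.

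Against Prm2+/-, all 3 Prm2-/- libraries had less Ccna1, with no overlap between 546 and 551, and the LFC was -0.20 (-3.65 to 3.25, adjusted p = 0.9997). The limma fit shares 1 spread over all 9 libraries. The width of this interval thus includes the low Prm2+/+ library, which is not compared here. Without that library the LFC was unchanged, with an adjusted p of 0.601 in limma. Groups did not overlap in this comparison for 3 of the 9 genes, Ccna1, Ccna2 and Ccnd3, and 14.7% of all genes were separated likewise. Ccna1 was the member with the most companions: 1145 tested genes had a Pearson correlation above 0.9 with it over the 9 libraries. The gene most like it was Ubb, which encodes polyubiquitin B (r = 0.9997), with 53.0 normalized counts in replicate 3 of Prm2+/+ and 7155 to 9707 in the other 8. Such a correlation describes that 1 library.

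Ccna2 (ENSMUSG00000027715, chr3:36564865-36572150, minus strand) was measured at 153, 110 and 64.1 normalized counts in Prm2+/+, at 144, 93.2 and 90.1 in Prm2+/- and at 70.6, 86.3 and 89.8 in Prm2-/-. The Prm2-/- libraries lay within the range of Prm2+/+ and just under that of Prm2+/-, from 89.8 to 90.1. LFC values were -0.33 against Prm2+/+ (-1.07 to 0.42, adjusted p = 0.795) and -0.38 against Prm2+/- (-1.12 to 0.37, adjusted p = 0.986), and Prm2+/- against Prm2+/+ gave 0.05 (-0.69 to 0.80). Exosc9, a subunit of the RNA exosome, overlaps Ccna2 by 863 bases on the opposite strand and had 96.9 to 160 normalized counts. Whether reads were counted by strand was not given in the sources used here, so reads of either gene in the shared bases could have been counted for the other.

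Among the G1 cyclins, Ccnd3 was the member with the lowest unadjusted p of the set. Cyclin D3 activates Cdk4 and Cdk6 at the start of the cycle. Ccnd3 (ENSMUSG00000034165, chr17:47505051-47599691, plus strand) was read at 20.9, 110 and 208 normalized counts in Prm2+/+, at 12.9, 17.4 and 15.02 in Prm2+/- and at 103, 104 and 151 in Prm2-/-. The 3 Prm2+/- libraries were the lowest of the 9, replicate 1 of Prm2+/+ came next, and the remaining 5 libraries lay above a gap of 4.76-fold. Recovered counts of 13 to 22 in the low libraries (95% exact Poisson intervals from 6.92 to 33.3) and of 102 to 188 in the high ones (83.2 to 217) did not overlap within counting error. Means were 113 ± 93.4 in Prm2+/+, 15.1 ± 2.25 in Prm2+/- and 119 ± 27.5 in Prm2-/- (SD, n = 3 each).

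For Ccnd3, the LFC of Prm2-/- against Prm2+/- was 2.89 (1.25 to 4.53, standard error 0.71, unadjusted p = 0.00369, adjusted p = 0.612), a 7.41-fold higher level. The LFC of Prm2+/- against Prm2+/+ was -2.32 (-3.97 to -0.68, unadjusted p = 0.0116, adjusted p = 0.842), and Ccnd3 was the only 1 of the 9 genes without overlap between these genotypes, where 9.44% of all genes were separated. Calls depended on the fit. Between Prm2-/- and Prm2+/-, Ccnd3 was called with the 6 libraries of these genotypes alone (adjusted p = 0.00613), by DESeq2 (LFC 2.99, adjusted p = 0.00609) and without replicate 1 of Prm2+/+ (adjusted p = 0.0164). Between Prm2+/- and Prm2+/+, it was called by DESeq2 (LFC -2.91, adjusted p = 0.0159) and without that replicate (LFC -3.26, adjusted p = 0.0109). Prm2-/- and Prm2+/+ differed by 0.57 (-1.08 to 2.21, adjusted p = 0.833), by 0.09 in edgeR, and by -0.37 without replicate 1 of Prm2+/+.

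The sum of the Sertoli cell markers moved with Ccnd3, but no single marker separated the same libraries. Of the 9 markers, Amh and Fshr were at 0 in every library, and the sum was 2853 to 3535 normalized counts in Prm2-/-, 2479 to 2570 in Prm2+/- and 2447 to 3946 in Prm2+/+. The 4 libraries low in Ccnd3 had the 4 lowest sums. Between Prm2-/- and Prm2+/-, 6 of 7 tested markers had an LFC above 0, as had 48.96% of all tested genes, and 0 were called. The spermatogonia markers summed to 281 to 336 in Prm2-/-, 259 to 372 in Prm2+/- and 269 to 403 in Prm2+/+. Their sums overlapped between the libraries low and high in Ccnd3. Clu made up most of the Sertoli sum, and without it the sums were 842 to 1370 in Prm2-/- and 723 to 881 in Prm2+/-, which overlapped. Amhr2 was at 539 and 544 in replicates 1 and 2 of Prm2-/- and at 692 in replicate 3 of Prm2+/+, against 6.43 to 12.8 elsewhere. Clu itself was at 1846 in replicate 2 of Prm2+/+, high in Ccnd3, and at 1848 in replicate 1 of Prm2+/-, low in Ccnd3. Sox9, Cldn11 and Rhox5 overlapped between the libraries low and high in Ccnd3. The part of Sertoli cells or spermatogonia in the Ccnd3 result was not tested. Bysl overlaps Ccnd3 by 361 bases on the opposite strand and had 127 to 173 normalized counts in 8 libraries and 307 in replicate 3 of Prm2+/+, the library highest in Ccnd3. The pseudogene Ccnd3-ps matches 881 bases of a Ccnd3 transcript at 96.3% identity. It is absent from the table used here, and the study states that it took pseudogenes out of the counts.

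Ccne1 (ENSMUSG00000002068, chr7:38097984-38107534, minus strand), whose product activates Cdk2 at the start of DNA replication, varied little and without order by genotype. Normalized counts were 30.4, 27.9 and 34.3 in Prm2+/+, 24.7, 28.3 and 39.8 in Prm2+/- and 35.3, 39.6 and 21.1 in Prm2-/-. All 3 groups overlapped. LFC values were 0.01 against Prm2+/+ (-0.63 to 0.65) and 0.03 against Prm2+/- (-0.61 to 0.67), intervals that exclude a change of 1.57-fold or more against Prm2+/+.

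The kinases themselves showed no separation by genotype. Cdk1 (ENSMUSG00000019942, chr10:69335146-69352938, minus strand) was low in all libraries, at 26.6, 7.50 and 23.2 normalized counts in Prm2+/+, 26.7, 26.5 and 10.6 in Prm2+/- and 35.3, 35.5 and 23.2 in Prm2-/-. Replicate 2 of Prm2+/+ and replicate 3 of Prm2+/- were the low libraries, a gap of 2.09-fold below the next. The value of 7.50 rested on 7 recovered counts (95% exact Poisson interval 2.81 to 14.4), and only Ccna1 in replicate 3 of Prm2+/+ had fewer, with 6 (2.20 to 13.1). Over the 9 libraries, Cdk1 had 7 to 39 recovered counts. The LFC was 0.83 against Prm2+/+ (-0.38 to 2.04, adjusted p = 0.746) and 0.62 against Prm2+/- (-0.59 to 1.83, adjusted p = 0.986). A doubling of Cdk1 and no change are both within these intervals.

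Cdk2 (ENSMUSG00000025358, chr10:128697939-128705031, minus strand) was measured at 243, 179 and 109 normalized counts in Prm2+/+, at 194, 195 and 151 in Prm2+/- and at 179, 165 and 202 in Prm2-/-. Means were 177 ± 66.9, 180.1 ± 25.1 and 182 ± 18.3 (SD, n = 3 each), and the Prm2+/+ libraries spanned both other groups. The LFC against Prm2+/+ was 0.11 (-0.52 to 0.73, adjusted p = 0.932), and it was -0.20 without replicate 3 of Prm2+/+. Against Prm2+/- it was 0.02 (-0.60 to 0.65). Pmel, a pigment cell gene, overlaps Cdk2 by 837 bases on the opposite strand and had 299 to 583 normalized counts, with the highest value in replicate 1 of Prm2+/-.

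Cdc25c (ENSMUSG00000044201, chr18:34732993-34751533, minus strand), the activating phosphatase, was read at 71.3, 62.2 and 42.0 normalized counts in Prm2+/+, at 43.5, 62.1 and 37.1 in Prm2+/- and at 43.5, 57.8 and 44.4 in Prm2-/-. The 3 groups overlapped. The LFC was -0.24 against Prm2+/+ (-0.85 to 0.36, adjusted p = 0.807) and 0.05 against Prm2+/- (-0.56 to 0.66). Gm3550 overlaps it by 1656 bases on the opposite strand and had 22.7 to 39.1 normalized counts.

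**Figure D3:**
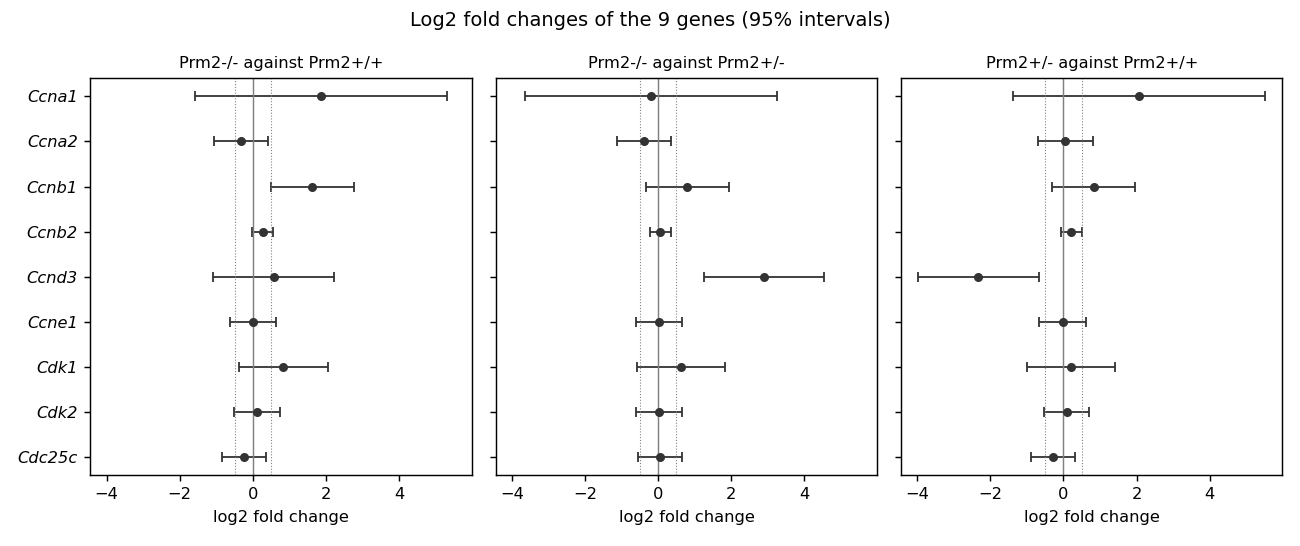
LFC (horizontal axis, log2 scale) of the 9 genes in the 3 comparisons, with points for the estimates and bars for the 95% intervals of limma. Dotted lines mark 0.5 in either direction. The intervals that leave out 0 are those of Ccnb1 for Prm2-/- against Prm2+/+ (0.50 to 2.76) and of Ccnd3 in both comparisons with Prm2+/-, and Ccna1 has the widest.

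Across the set, 4 of the 9 genes had a gap of more than 2-fold between neighbouring libraries (Ccna1, Ccnb1, Ccnd3 and Cdk1), as had 22.0% of all tested genes, whose median gap was 1.27-fold. The low libraries differed from gene to gene. They were replicate 3 of Prm2+/+ for Ccna1, all of Prm2+/- with replicate 1 of Prm2+/+ for Ccnd3, and replicate 2 of Prm2+/+ with replicate 3 of Prm2+/- for Cdk1. Replicate 3 of Prm2+/+ was the lowest of the 9 libraries for 4 members (Ccna1, Ccna2, Ccnb2 and Cdk2) and the highest for Ccnd3. Over the 36 pairs of members, the Pearson correlation of log2 values over the 9 libraries ranged from -0.65 (Ccna2 with Ccnd3) to 0.92 (Ccna1 with Ccnb2), with a median of 0.06, and the pairs share the library that stood apart.

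The tested gene most like each member over the 9 libraries was Rdh10 for Ccna2 (r = 0.949), Aqp1 for Ccnb1 (0.992), Rps28 for Ccnb2 (0.981), Lin37 for Ccnd3 (0.951), Pet100 for Ccne1 (0.915), Heatr9 for Cdk1 (0.970), Acsl4 for Cdk2 (0.959) and Stk17b for Cdc25c (0.973). Aqp1, a water channel, was listed at 0 in the 5 libraries low in Ccnb1 and had 30.04 normalized counts in replicate 3 of Prm2+/- and 15.4, 21.3 and 12.7 in Prm2-/-. Lin37 followed Ccnd3 within a narrow range, from 28.3 to 35.2 in the 4 low libraries and from 40.7 to 47.5 in the 5 high ones. Each r is the highest over all other tested genes and is given as a description of 9 libraries.

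The wider cell cycle machinery was covered by 124 genes in 6 lists, of which 111 were tested. None (0) was called in any comparison by limma, and 5 had an unadjusted p under 0.05 between Prm2-/- and Prm2+/+ (4.50%), with a median LFC of 0.09 over the lists. The 28 tested genes of the anaphase-promoting complex and the division kinases had a median LFC of 0.28, beside 0.02 over all tested genes. Of the 28, 20 were above 0, as were 52.88% of all. For Prm2-/- against Prm2+/-, their median LFC was 0.01, beside -0.006 over all tested genes. In that comparison 15 of the 28 were above 0, beside 48.96% of all, and 0 had an unadjusted p under 0.05, beside 5.44%. Against Prm2+/+, an unadjusted p under 0.05 was reached by 4, beside 7.33% of all genes, with Bub3, Espl1 and Anapc4 higher and Cdc20 lower (LFC -0.25). Bub3, a spindle checkpoint protein, had the highest LFC there at 2.48 (0.36 to 4.59, unadjusted p = 0.0270, adjusted p = 0.624). It was measured at 39.0, 347 and 16.6 normalized counts in Prm2+/+ and at 332 to 386 in the other 6 libraries. Prm2+/- was likewise higher than Prm2+/+, with an LFC of 2.55 (unadjusted p = 0.0237 in limma), and Prm2-/- against Prm2+/- gave -0.08. Bub3 was called only after replicate 2 of Prm2+/+, the only high Prm2+/+ library, was left out. The LFC against Prm2+/+ was then 3.71 for Prm2-/- (adjusted p = 0.00444) and 3.79 for Prm2+/- (adjusted p = 0.00646). Anapc7, a subunit of the complex, had the lowest LFC at -0.30 (-0.86 to 0.25).

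Among regulators of Cdk1, Hspa2, the chaperone that spermatocytes need to assemble Cdk1 with cyclin B1, switched between libraries. It was at 3730, 138 and 3256 normalized counts in Prm2+/+, at 127, 78.6 and 3210 in Prm2+/-, and at 3601, 3600 and 3280 in Prm2-/-. Low libraries were found in both control genotypes, and the LFC of Prm2-/- against Prm2+/+ was 1.55 (-2.19 to 5.29). Proca1 had the lowest LFC of the activators and cofactors at -1.30 (-3.18 to 0.57). Of the inhibitors, Pkmyt1, the kinase that places an inhibitory phosphate on Cdk1, was listed at 0 in replicate 1 of Prm2+/+, at 38.6 and 86.2 in replicates 2 and 3, and at 71.6 to 150 in the other genotypes, with an LFC of 2.78 (-0.53 to 6.09), and Gadd45a stood lowest at -0.86 (-3.28 to 1.56).

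Rbl2, the pocket protein p130 that represses cell cycle genes, had the lowest unadjusted p of the lists for Prm2-/- against Prm2+/+. It was measured at 419, 447 and 558 normalized counts in Prm2+/+, at 360, 269 and 300.4 in Prm2+/-, and at 269.9, 318 and 338 in Prm2-/-. All Prm2+/+ libraries were above all others. The LFC was -0.62 for Prm2-/- (-0.98 to -0.25, unadjusted p = 0.00466, adjusted p = 0.437) and -0.61 for Prm2+/- (-0.98 to -0.25, adjusted p = 0.842), and these share the Prm2+/+ libraries. E2f6 was highest among the transcription regulators at 2.11 (-0.86 to 5.08), with 0 in replicates 1 and 3 of Prm2+/+. The list of other cyclins ran from Ccno at -1.43 to Ccnb1ip1 at 1.51, and both ends rested on 1 library at 0. Ccnb1ip1 is not itself a cyclin but a ubiquitin ligase of meiotic crossovers, and Cntd1 came next at 1.42. Ccno had 24.5, 18.3 and 0 normalized counts in Prm2-/- against 19.3 to 21.9 in Prm2+/+, and Ccnb1ip1 had 24.7, 21.4 and 0 in Prm2+/+ against 21.7 to 24.4 in Prm2-/-. The other kinases ran from Cdkl2 at -0.64 to Cdk16 at 1.08. Cdkl2 had 190, 672 and 178 normalized counts in Prm2+/+, 179, 616 and 607 in Prm2+/- and 175, 176 and 193 in Prm2-/-.

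**Figure D4:**
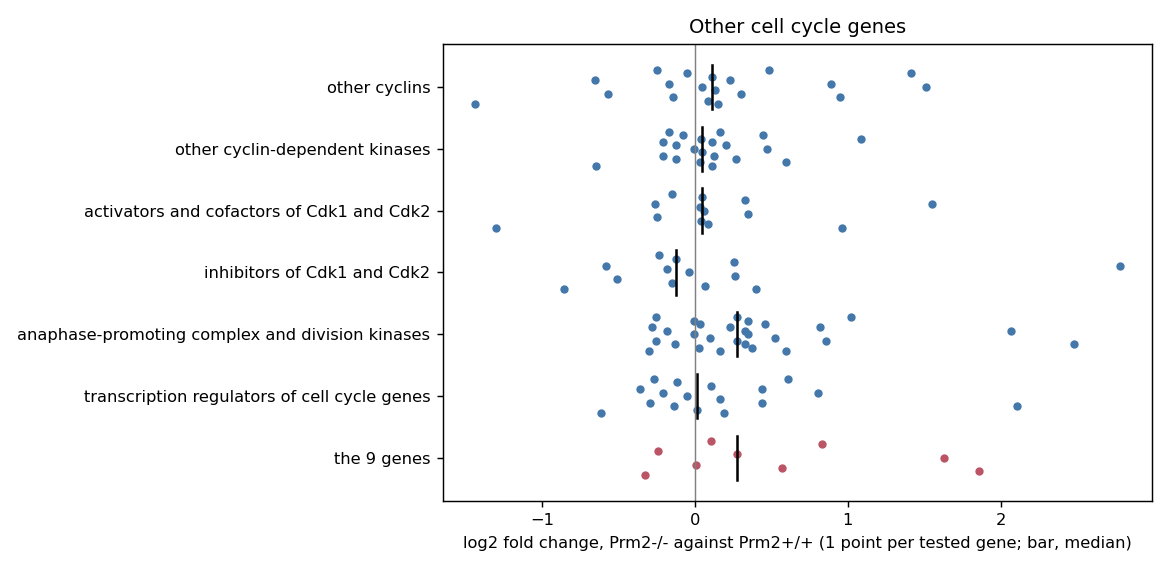
LFC of Prm2-/- against Prm2+/+ (horizontal axis, log2 scale) for each tested gene of the 6 cell cycle lists (blue) and the 9 genes (red). Black bars are medians, the highest being that of the anaphase-promoting complex and division kinases at 0.28, equal in rounding to that of the 9 genes, and Pkmyt1 at 2.78 is the rightmost point. Over all tested genes the median was 0.02.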

How the data were processed

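RNA of 9 testes (3 per genotype) was read with QuantSeq. Per the labels and the study's methods, the authors trimmed reads with Trim Galore 0.4.5, aligned them to GRCm38 with HISAT2 2.1, counted them with StringTie 1.3.3 and its gene-count script on Ensembl release 89, and normalized them with DESeq2 1.16.1. The deposited values are a signal, normalized counts for which the authors divided gene counts by a size factor of the library. Counts were recovered, since 100% of the values came out whole (tolerance 0.001) at a fixed step in each library, although for replicate 1 of Prm2+/- the step lies near 1. StringTie derives counts from coverage, and their scale may differ from that of reads. Of the 38685 entries, 38520 (99.57%) matched GENCODE M21, and 0 sample columns were unmatched.

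Genes were kept by filterByExpr on recovered counts (14893). limma (lmFit, eBayes with trend) was fitted to log2 of the value plus 1 over all 9 libraries with genotype as the only term, and p-values were adjusted over all tested genes. limma, edgeR and DESeq2 were run on simulated counts with known changes. DESeq2 made the most false calls of these tools where each simulated gene had its own spread, up to a cap. Genes whose libraries fall into a low and a high set, such as Ccnb1 and Ccnd3, were not simulated. The false calls thus do not bear on the calls of these genes. The comparisons use the labels' genotypes. Nothing in the labels ties the males to separate litters or days, so p-values measure the spread between these 3 libraries per genotype. Within a genotype, libraries differed by more than counting noise and none was counted as a duplicate. Poisson intervals cover counting error only. The members and lists were chosen with earlier results of these data known. Named are the 9 members, Prm2, each list's called genes and its genes with the highest and lowest LFC of Prm2-/- against Prm2+/+, and the gene most correlated with each member. Cdc20, Espl1 and Anapc4 were named after their values were seen, and marker, neighbouring and copy genes are named where a result touches them. Alternatives were pseudocounts of 0.5 and 5, log2 CPM with TMM factors, other filters, the 6 libraries compared alone, a replicate block, edgeR, DESeq2 and leaving out each library. limma 3.58.1, DESeq2 1.42.0 and edgeR 4.0.16 were run in R 4.3.3, and tables and plots were made in Python 3.11.15 with pandas 2.3.3, numpy 2.4.6 and matplotlib 3.10.9. Other experiments of the study were not analysed here.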

Additional observations from a re-analysis of the deposited data

How the results depend on the processing

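Of 480 values of the 9 genes under the alternatives, 447 kept direction and side of the threshold, 25 changed sign and 8 gained a call. Direction could not change in part of these. Other filters, the 6 libraries alone, the replicate block and leaving out a library of the genotype not compared leave the LFC as it was. Between Prm2-/- and Prm2+/+, Prm2-/- and Prm2+/-, and Prm2+/- and Prm2+/+, in this order, 27, 26 and 12 genes were called over the table. A minimum of 10 counts in every library gave 9, 11 and 1, DESeq2 131, 110 and 59, and leaving out 1 library 28 to 64, 23 to 50 and 9 to 44. The 6 libraries compared alone gave 50 and 52 in the comparisons with Prm2-/-, and a filter of counts above 0 gave 21 between Prm2+/- and Prm2+/+. Of the 9 genes, 1 was called with the 6 libraries alone (Ccnb1 against Prm2+/+, Ccnd3 against Prm2+/-), by DESeq2 (Ccnd3, in both comparisons with Prm2+/-) and in 0 to 1 with 1 library left out. Other cell cycle genes called were 0 to 1 with 1 library left out (Bub3, without replicate 2 of Prm2+/+, in both comparisons with Prm2+/+). The cause of the other differences was not tested.

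A replicate block gave 15, 14 and 6 calls over the table. Correlations of same-numbered deviations over all tested genes lay between -0.04 and 0.04, so that no pairing by number was seen over the table. A tie between libraries that touches few genes would be missed in this way. The block changed no call among the 9 genes.

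DESeq2 gave Ccna2 an LFC of -0.0052 and Ccne1 0.0062 for Prm2+/- against Prm2+/+, where edgeR gave Ccne1 0.0091. With 1 library left out, LFC values for Prm2-/- against Prm2+/+ ranged from -0.24 to 2.96 for Ccna1, -0.37 to 1.26 for Ccnd3, -0.16 to 0.27 for Ccne1 and -0.20 to 0.37 for Cdk2. For Prm2-/- against Prm2+/- they ranged from -0.14 to 0.29 for Ccne1, -0.10 to 0.088 for Cdk2 and -0.11 to 0.25 for Cdc25c. For Prm2+/- against Prm2+/+ they ranged from -0.041 to 3.16 for Ccna1, -0.28 to 0.34 for Ccna2, -0.21 to 0.12 for Ccne1, -0.32 to 0.63 for Cdk1 and -0.22 to 0.35 for Cdk2.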
